A study of Homo sapiens with 2 samples.

Results

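The VCX genes (variable charge X-linked) comprise VCX3A, VCX, VCX2, and VCX3B, and these 4 genes were found by their names among the 33538 genes listed in both tables. They were chosen because earlier results of the same data had shown many of their transcripts in DAC-treated cells and almost none in mock-treated cells, so the difference between the conditions is described here and not tested. HCT116, a human colon cancer cell line, was exposed to 0.5 µM of decitabine (DAC), a cytidine analog that traps DNA methyltransferases, between days 1 and 5, with the dose repeated on day 3. Cells of day 7 were analyzed beside mock-treated cells. From each condition, 1 droplet scRNA-seq library was prepared, and each transcript was counted near its 3′ end by its unique molecular identifier (UMI). The tables held 1783 mock-treated and 1751 DAC-treated cells, with medians of 27899 and 35340 UMIs per cell.

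VCX proteins are small and highly charged, and they are made mainly in male germ cells. Their genes lie in copies of a repeated segment on the short arm of the X chromosome, on both sides of the steroid sulfatase gene STS, and recombination between these segments deletes STS in X-linked ichthyosis. X-linked germline genes that are silent in most somatic tissues and reappear in tumors are known as cancer-testis genes, and many are kept silent by DNA methylation.

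On hg38, with gene models of GENCODE release 44, the family spanned 1.93 Mb. VCX3A (ENSG00000169059) was at chrX:6533618-6535118 on the minus strand and VCX (ENSG00000182583) at chrX:7842262-7844143 on the plus strand. VCX2 (ENSG00000177504) was at chrX:8169944-8171267 on the minus strand and VCX3B (ENSG00000205642) at chrX:8464830-8466510 on the plus strand. PUDP, STS, and PNPLA4 were the 3 other protein-coding genes between VCX3A and VCX3B. VCX2 lay inside a long noncoding RNA gene on the opposite strand, and the other VCX genes overlapped no annotated gene.

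The genes differ most plainly in a tandem repeat of 30 bases, or 10 codons, near the end of the coding sequence. In the main coding transcript of every member, the repeat began at base 307 of the coding sequence. Counting copies with up to 6 differences from the most frequent unit, VCX3B carried 14 copies in 741 coding bases, VCX carried 10 in 621, VCX3A carried 8 in 561, and VCX2 carried 2 in 420. The 34 copies fell into 8 distinct units, and the 4 shown here are the most frequent unit (A), the next units in frequency (B and C), and the unit found in VCX2 alone (D), with capitals at bases that differ from unit A.
Unit A: ccactgagtcaggagagccaggtggaggaa
Unit B: ccactgagtcaggagagcGaggtggaAgaa
Unit C: ccactgagtcaggagagcGagAtggaAgaa
Unit D: ccCctgagtcaggagagcGaggtggaAgaa
Unit A accounted for 5 copies in VCX3B, 4 in VCX, 3 in VCX3A, and none in VCX2. Unit B was present in all the members, with 4 copies in VCX3B, 2 in VCX3A, 2 in VCX, and 1 in VCX2, whose only other copy was unit D.

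The regions before the genes were compared because DNA methylation, which DAC reduces, lies mainly on CG dinucleotides. RefSeq windows on GRCh38.p14, 250 bases before to 50 after the start, were given for 4 of the 4 genes. The windows of VCX3A, VCX2, and VCX3B lay at a distant first exon, 621 to 624 genomic bases before the start codon, and contained 1, 3, and 3 CG dinucleotides, against a median of 14 in all 35116 windows. The window of VCX was set at a start only 33 bases before its start codon and contained 16. Stretches of the VCX and VCX3B windows that lie outside the annotated exons, chrX:7842921-7843057 and chrX:8464580-8464829, both on the plus strand, are shown with CG dinucleotides in capitals. The VCX stretch lies inside the gene model, in the first intron of its longest transcript, and the VCX3B stretch lies before the gene.
VCX: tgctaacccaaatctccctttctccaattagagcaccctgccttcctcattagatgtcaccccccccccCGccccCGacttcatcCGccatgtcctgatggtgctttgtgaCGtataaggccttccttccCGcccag
VCX3B: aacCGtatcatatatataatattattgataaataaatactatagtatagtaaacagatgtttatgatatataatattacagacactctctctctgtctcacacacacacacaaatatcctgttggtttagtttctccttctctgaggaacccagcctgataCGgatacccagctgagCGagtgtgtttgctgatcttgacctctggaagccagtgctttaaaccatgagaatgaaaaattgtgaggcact
The distant windows of VCX3A, VCX2, and VCX3B were 83.7 to 86.9% identical with each other and 46.2 to 48.1% identical with that of VCX. Around the start codon the members were alike. In windows from 250 bases before the start codon to 50 bases from it, the 4 genes were 97.4 to 98.7% identical, and these windows contained 17 to 19 CG dinucleotides. Methylation was not measured in these libraries. The pentamer CCAAT, searched on both strands, occurred 3 times in the RefSeq window of VCX, a number reached in 3.26% of all windows. It did not occur in the windows of the other members, while 34.6% of all windows contained it. These windows lie at unlike distances from the start codon. CCAAT was not counted in the windows around the start codon, where the members were alike, so no difference between the genes is read from it.

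In mock-treated cells, the only VCX transcript was 1 UMI of VCX3A, and VCX3B, VCX, and VCX2 had 0 UMIs, for which the upper limit was taken as 3 counts over the library. In DAC-treated cells, VCX3B had 7903 UMIs (95% exact Poisson interval, 7730–8079), or 134 CPM, the UMIs scaled to a library total of 1000000. VCX3A had 5365 UMIs (5222–5511), or 90.9 CPM. VCX had 679 UMIs (629–732), or 11.5 CPM, and VCX2 had 460 UMIs (419–504), or 7.79 CPM. The intervals cover counting error only. The levels fell in the order VCX3B, VCX3A, VCX, and VCX2, with no overlap between the counting intervals of neighbors in this order.

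Because UMIs were counted at the 3′ end, these values count molecules and do not depend on transcript length, but they do depend on how reads of near-identical copies were assigned. Of the stretches of 90 bases in the last 500 bases of the main transcript, 44.8% of those of VCX3B, 53.5% of VCX, 57.4% of VCX2, and 72.7% of VCX3A were also present in another VCX gene. With stretches of 50 bases, the shares were 81.2%, 77.6%, 70.1%, and 88.7%. Reads that fit more than one gene are commonly left out of such counts, which would lower the members and their sum, and the part of this in the levels and their order was not tested.

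Against the limit of 3 counts, the DAC level of VCX3B was at least 2227-fold higher, that of VCX at least 191-fold, and that of VCX2 at least 130-fold. On the log2 scale these limits were 11.12 for VCX3B, 7.58 for VCX, and 7.02 for VCX2, and as the mean of per-cell CPM they were 8.99, 5.37, and 5.36. With 20% mitochondrial UMIs as the maximum for a cell, they were 10.28, 6.83, and 6.16. VCX3A was 4535-fold higher, with an exact conditional binomial interval of 814 to 179157 around the single mock count. On the log2 scale this ratio of VCX3A was 12.15, against 6.64 as the mean of per-cell CPM and a lower bound of 10.54 without the barcodes that both libraries contained. The whole family was 12178-fold higher (2185–481047), or 13.57 on the log2 scale, against 8.14 as the mean of per-cell CPM and a lower bound of 11.97 without those barcodes. All 4 members had a CPM ratio of 4 or more, which 6.53% of the 13547 genes with at least 100 UMIs in both libraries together also had. Since the members were selected on this difference, nothing is read from that count.

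The single mock UMI came from a cell with 547 UMIs whose barcode was 1 of 12 that the libraries shared. The DAC-treated cell with the same barcode had 68764 UMIs, of which 66 were of VCX genes. Without the 12 shared barcodes, the mock library had no VCX UMI, and the DAC library retained 14339 of its 14407. In every shared pair, the barcode had 2294 UMIs or fewer in at least 1 library.

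In DAC-treated cells, VCX transcripts were concentrated in a minority of cells. At least 1 family UMI was found in 578 of 1751 cells (33.0%, exact Clopper-Pearson interval 30.8–35.3), at least 3 in 214 cells (12.2%, 10.7–13.8), and at least 10 in 164 cells (9.37%, 8.04–10.8). In mock-treated cells, 1 of 1783 cells had a family UMI, and 0 of 1783 cells had 3 or more, which allows a share of up to 0.168% when 3 counts are taken as the limit and up to 0.207% by the exact interval. By member, cells with at least 1 UMI numbered 425 for VCX3B (24.3%), 363 for VCX3A (20.7%), 175 for VCX (9.99%), and 66 for VCX2 (3.77%). At 10 or more UMIs, the numbers were 139, 122, 16, and 13 cells. All 4 members reached 3 UMIs in more than 1% of DAC-treated cells and in no mock-treated cell, as did 1.27% of the 25429 genes with a UMI, and this contrast also chose the members.

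**Figure D1:**
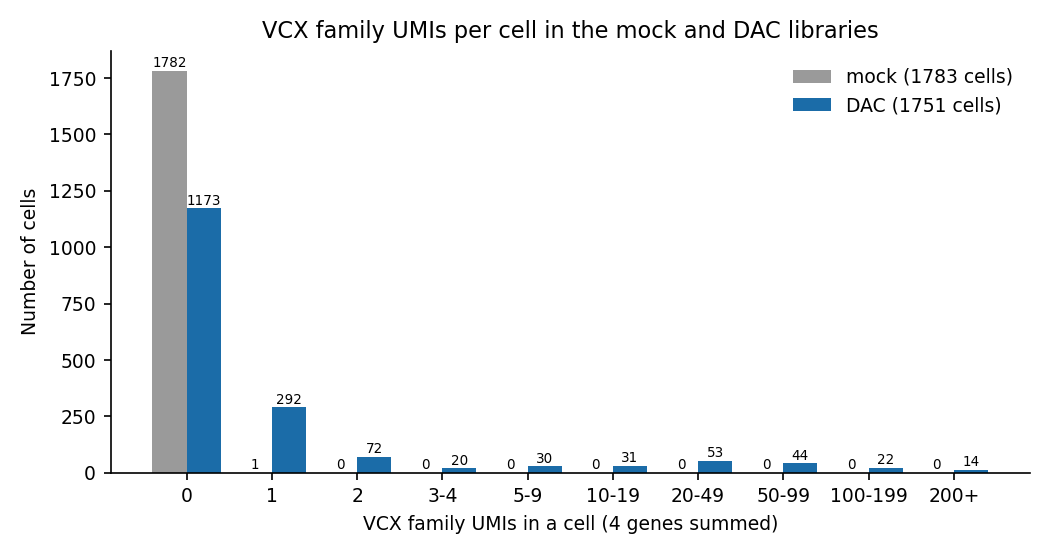
Number of cells (vertical axis) by summed UMIs of the 4 VCX genes in a cell (horizontal axis, binned), for mock-treated (gray) and DAC-treated cells (blue). In the DAC library, 1173 cells had 0 UMIs and 292 had 1, the bin of 3 to 4 UMIs had 20 cells, and 53 cells had 20 to 49.

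Most positive cells had few VCX UMIs, and most VCX UMIs were in few cells, with no gap between low and high counts. Of the 578 cells with a family UMI, 292 had 1 UMI and 72 had 2, 50 had 3 to 9, and 164 had 10 or more. The 364 cells with 1 or 2 UMIs held 3.03% of the family UMIs, and the 164 cells with 10 or more held 95.1%. The highest cell had 843 family UMIs among 72133, of which 480 were VCX3B, 287 VCX3A, 31 VCX, and 45 VCX2. In the third-ranked cell, 425 family UMIs made up 2.32% of its 18312 UMIs. Among the 164 cells with 10 or more, the median share of the family in a cell's UMIs was 0.121%.

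Per positive cell, the members differed in mean much more than in median. The mean and the median were 18.6 and 2 UMIs for VCX3B, 14.8 and 2 for VCX3A, 3.88 and 2 for VCX, and 6.97 and 1 for VCX2. The 90th percentiles were 48, 39, 9, and 23 UMIs, and the maxima were 480, 287, 31, and 74. VCX2, detected in the fewest cells, therefore had more UMIs per positive cell than VCX on average. The 18 cells (1%) with the most UMIs of a gene held 41.3% of the UMIs of VCX3B, 39.1% of VCX3A, 35.1% of VCX, and 86.7% of VCX2. For VCX3B and VCX3A, the top 5% of cells held 82.9% and 82.4%. A share of 50% or more was reached by 1.00% of the 6178 genes with at least 1000 UMIs in the DAC library, among which the median share was 24.5%, and both VCX3B and VCX3A were among them. VCX and VCX2 had too few UMIs for that comparison.

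The share of positive cells depended on the UMIs collected from a cell. In the lowest, middle, and highest tertile of total UMIs (501–17257, 17403–46256, and 46340–110116), at least 1 family UMI was found in 22.9%, 34.1%, and 42.0% of cells. At least 10 were found in 1.71%, 12.2%, and 14.2%. When 10000 UMIs were drawn from each of the 1293 DAC-treated cells with that many, leaving out 458 cells, the expected share with at least 1 family UMI was 20.5% and that with at least 3 was 11.8%. Without drawing, the shares in the same 1293 cells were 36.7% and 14.4%. The same drawing could only give 0% of 1388 mock-treated cells, leaving out 395, since these 1388 cells had no VCX UMI before drawing.

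At 3 UMIs, cells with a less abundant member mostly had the more abundant ones. The shares in the other direction must be smaller, since the same cells with both genes are divided by a larger group. Of the 176 cells with at least 3 VCX3A UMIs, 171 (97.2%, 93.5–99.1) also had at least 3 VCX3B UMIs, and of the 195 VCX3B cells, 171 (87.7%, 82.2–92.0) had VCX3A. Among the 1556 cells below 3 VCX3B UMIs, 0.321% had 3 or more of VCX3A. All 85 cells with at least 3 VCX UMIs also had VCX3B and VCX3A at that threshold (95.8–100%). Of the 21 VCX2 cells, 21 had VCX3B, 20 had VCX3A, and 16 had VCX. In the other direction, 43.6% of the 195 VCX3B cells had VCX and 10.8% had VCX2. No cell reached 3 UMIs of VCX or VCX2 without another member, whereas 23 cells did so for VCX3B alone and 5 for VCX3A alone. All 4 members reached 3 UMIs in 16 cells.

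**Figure D2:**
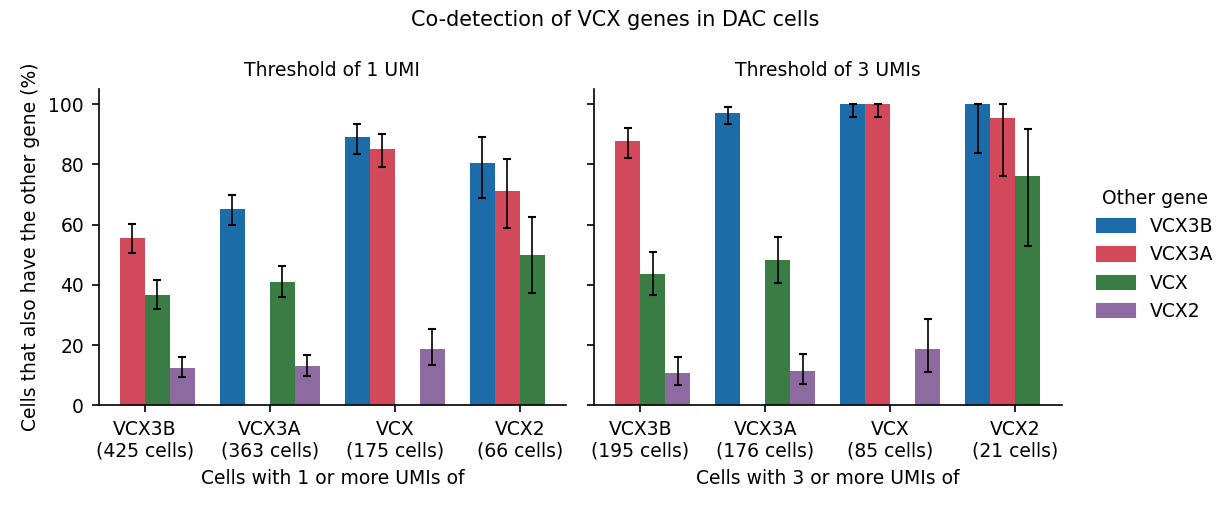
Percent of DAC-treated cells with a VCX gene (groups on the horizontal axis) that also have another VCX gene (colors), at thresholds of 1 UMI (left) and 3 UMIs (right), with exact 95% binomial intervals as error bars. At 3 UMIs, VCX3B was found in 97.2% of VCX3A cells and 100% of VCX cells, and VCX2 in 10.8% of VCX3B cells.

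At 1 UMI, the shares of VCX3A and VCX3B cells with the other gene were smaller than at 3, while the shares with VCX2 were close at both thresholds, such as 12.5% and 10.8% of VCX3B cells. VCX3B was found in 65.0% (59.9–69.9) of the 363 VCX3A cells and in 13.6% of cells without VCX3A, and VCX3A in 55.5% (50.7–60.3) of the 425 VCX3B cells. VCX3B was found in 89.1% of VCX cells and in 80.3% of VCX2 cells. Of the 578 cells, 317 had 1 member, 104 had 2, 124 had 3, and 33 had all 4. At 3 UMIs, VCX3A cells with VCX3B were 12 of 16 cells in the lowest tertile, 73 of 74 in the middle tertile, and 86 of 86 in the highest, and VCX3B cells with VCX3A were 12 of 25, 73 of 80, and 86 of 90.

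**Figure D3:**
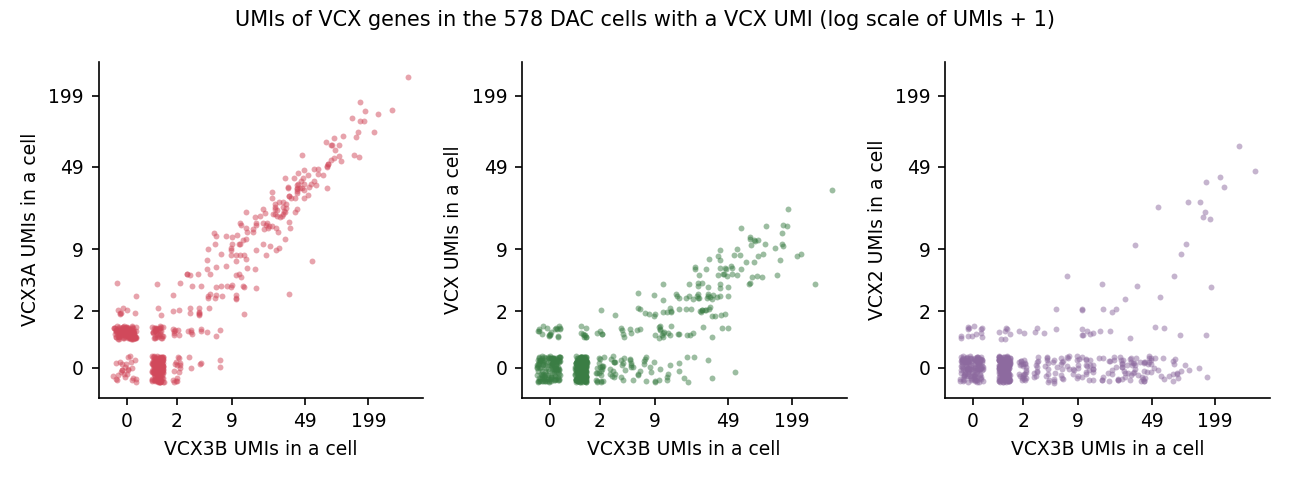
UMIs of VCX3A, VCX, and VCX2 (vertical axes) against UMIs of VCX3B (horizontal axes) in the 578 DAC-treated cells with a VCX UMI, on log scales of UMIs + 1, with small random shifts to separate points. VCX3A and VCX rise with VCX3B along a band, while for VCX2 most cells lie at 0 up to high VCX3B counts.

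Pooled over the cells of a class, VCX3B, VCX3A, and VCX had similar proportions in the classes with many VCX UMIs. VCX3B accounted for 54.0% (51.9–56.1) of the family UMIs in cells with 10 to 49 of them and for 55.1% (54.2–56.0) in cells with 50 or more. VCX3A accounted for 38.7% and 37.0%, and VCX for 5.39% and 4.51%. Over the 1293 cells with at least 10000 UMIs, the Pearson correlation of log2(UMIs per 10000 UMIs + 1) was 0.96 between VCX3B and VCX3A and 0.88 between VCX3B and VCX. These cells share a library and most of them are at 0, so the coefficients are descriptions.

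The proportion of VCX3A still varied more than counting gives. In 128 cells with at least 20 UMIs of VCX3A and VCX3B together, VCX3A made up a median of 42.1% of the pair, with quartiles of 37.8% and 47.2% and a range from 8.11 to 60.6%. The SD over cells was 8.82 percentage points, against 6.85 from binomial counting. In 133 cells with at least 20 family UMIs, the SD of a member's share was 1.09 times the binomial SD for VCX3B, 1.08 times for VCX, 1.36 times for VCX3A, and 1.71 times for VCX2.

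VCX2 was found in a subset of the cells with high VCX levels. Of the 164 cells with 10 or more family UMIs, 124 (75.6%) had no VCX2 UMI, 19 had 1 or 2, 8 had 3 to 9, and 13 had 10 or more. These 13 cells held 373 of the 460 VCX2 UMIs (81.1%), and in them VCX2 made up 5.12 to 25.6% of the family UMIs, with a median of 10.2%. The other members summed to a median of 249 UMIs (lowest 37) in these 13 cells and to a median of 47 UMIs (highest 303) in the 124 cells without VCX2. The ranges overlapped, so a cell could have up to 303 UMIs of the other members and none of VCX2. Of the 13 cells with 10 or more VCX2 UMIs, 1 had 34 VCX3B, 3 VCX3A, and 10 VCX2 UMIs. It was the cell with the lowest VCX3A share of the pair given above, 8.11%. Whether the proportions of the other members differed between cells with and without VCX2 was not tested.

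Cells with 1 or 2 family UMIs resembled the high cells in composition. Their 436 UMIs were 51.8% VCX3B (47.0–56.6), 37.6% VCX3A (33.1–42.3), 6.19% VCX (4.12–8.88), and 4.36% VCX2 (2.64–6.72), and the 2 classes of 10 or more lay within these intervals for VCX3B, VCX3A, and VCX. VCX2, at 1.89% in cells with 10 to 49 family UMIs and 3.42% in cells with 50 or more, was within the interval in the latter class. The 50 cells with 3 to 9 family UMIs had 57.7% VCX3B (51.6–63.7), above the interval of the cells with 1 or 2 but overlapping it. Median total UMIs were 31354 in cells without a VCX UMI, 40149 in cells with 1 or 2, 17039 in cells with 3 to 9, 41038 in cells with 10 to 49, and 50298 in cells with 50 or more, so the cells with 3 to 9 were the shallowest. RNA released from other cells can give single UMIs in droplet libraries, and its part in the 364 cells with 1 or 2 UMIs was not tested.

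Neighboring genes of Xp22 with enough UMIs to be compared ranged from 0.44-fold for TBL1X to 52.6-fold for FAM9C in DAC-treated over mock-treated cells. Of 22 listed neighbors, 11 had at least 100 UMIs in both libraries together, 7 were higher and 4 lower in DAC-treated cells, and their median log2 CPM ratio was 0.18. Over the 13547 genes with as many UMIs, 63.1% were higher and the median was 0.24. Median-of-ratios scaling lowered every log2 ratio by 0.18, after which GPR143 and SHROOM2 were below 0, giving 5 higher and 6 lower. In this list, 1 of the 11 genes had a ratio of 4 or more, beside 6.53% of all genes, and that gene had 100 UMIs in the DAC library only, so the count is no support for a difference. PUDP, a pseudouridine phosphatase gene next to VCX3A, had 292 mock and 627 DAC UMIs (log2 ratio 0.86), and PNPLA4, a lipase gene next to VCX, had 1390 and 1015 (−0.70). PRKX, a protein kinase gene, had a log2 ratio of 0.36, ARSD, an arylsulfatase gene, −0.38, and TBL1X, a corepressor subunit gene, −1.19. MID1, a ubiquitin ligase gene, was at 0.58 and WWC3 at 0.55, and SHROOM2, an actin regulator gene, was at 0.18. GPR143 and CLCN4, with 91 and 76 DAC UMIs, were at 0.06 and −0.14. The gene with the ratio above 4 was FAM9C, a testis-expressed gene and the most distant of the list, with 4 mock and 249 DAC UMIs (interval of the ratio, 20.3–195). Its relatives FAM9B and FAM9A and the gene STS had fewer than 100 UMIs and are named after their values were seen. FAM9B had 1 mock and 89 DAC UMIs, a 75.2-fold difference (13.2–3004). STS, which lies between VCX3A and VCX, had 11 and 53, a 4.07-fold difference (2.10–8.65). FAM9A had 0 and 11.

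**Figure D4:**
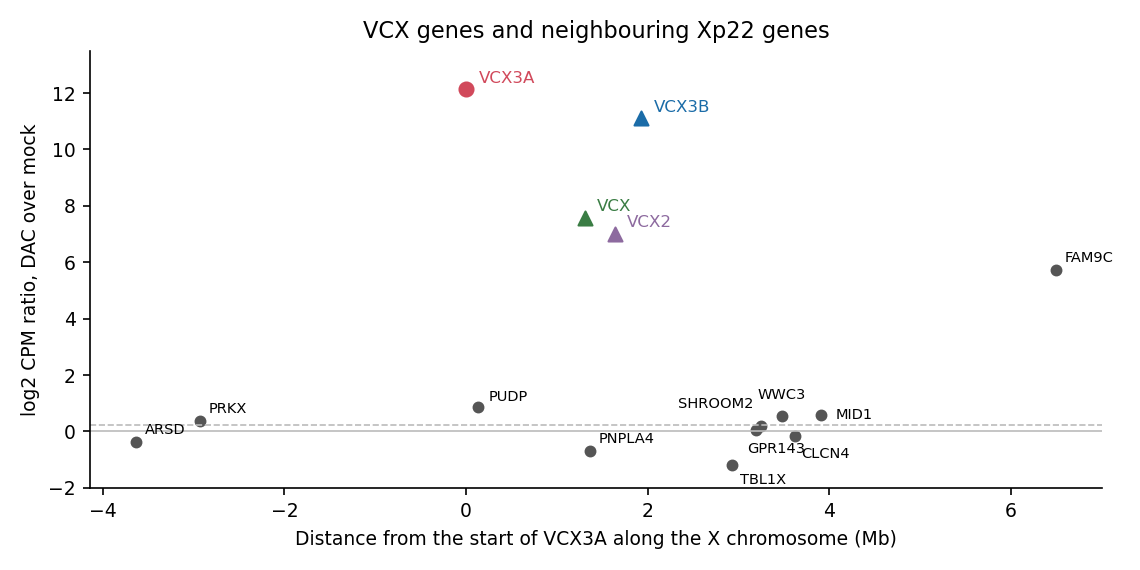
Log2 CPM ratio of DAC-treated over mock-treated cells (vertical axis) against distance from the start of VCX3A in Mb (horizontal axis) for the VCX genes (colored, triangles are lower bounds against 3 mock counts) and 11 neighbors (gray), with the median of all genes dashed. Of the neighbors plotted, which had 100 UMIs or more, FAM9C, the farthest to the right, is at 5.72 and the others lie between −1.19 and 0.86, and STS and FAM9B had too few UMIs to be plotted.

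Cells with high VCX levels also had more transcripts of other X-linked germline genes. Among 8553 genes with at least 500 DAC UMIs, the 10 genes most like the summed family over the 1293 deeper cells, apart from its members, were PAGE2B (r = 0.41), PAGE1 (0.40), PAGE5 (0.35), GAGE12H (0.34), GAGE2A (0.33), PAGE2 (0.32), MAGEC2 (0.30), DHRSX (0.30), MAGEA4 (0.29), and FMR1NB (0.28). All 10 are on the X chromosome, which held 3.00% of the 8544 genes with a position, and all but DHRSX, a dehydrogenase gene of the pseudoautosomal region, belong to known cancer-testis families. These coefficients were below those between the members, the lowest of which were 0.45 to 0.53 for pairs with VCX2, and the 99th percentile of all genes was 0.19. GAGE and PAGE genes have near-identical copies, so their individual counts are uncertain. Between the 158 deeper cells with 10 or more family UMIs and the 819 with 0, PAGE2B had the largest CPM ratio among these 10, 6.10. It had 154 against 25.3 CPM and was detected in 63.3% against 19.5% of the cells. The 10 genes were picked over these same cells. DHRSX, with 476 mock and 2411 DAC UMIs, had 81.8 against 34.3 CPM.

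A list of 51 X-linked germline genes, chosen with earlier results known, was compared in the middle and highest tertiles between 154 cells with 10 or more family UMIs and 723 cells with 0, with medians of 47686 and 44761 total UMIs. All 32 genes with at least 100 UMIs had a ratio above 1 of VCX-high cells to cells without VCX, with a median of 2.87, beside 1.01 over 13534 genes, of which 51.7% were higher. For TEX11 (1.19-fold, 0.82–1.68) and CSAG3 (1.61-fold, 0.62–3.75), named after their values were seen, the counting interval included 1. A ratio of 2 or more was found for 25 of the 32 genes and for 2.76% of all genes. Of the 8 genes of the list with the most DAC UMIs, PAGE2B (6.03-fold), PAGE1 (5.05-fold), and GAGE2A (3.60-fold) differed most. MAGEA4 (2.53-fold), CTAG2 (2.39-fold), and TKTL1 (1.92-fold), a transketolase-like gene, differed less. MAGEB2 and MAGEA3, which had 3317 and 2776 UMIs in mock-treated cells, were at 1.15-fold and 1.11-fold. Between the libraries, 28 of the 32 genes had a CPM ratio of 4 or more, beside 6.53% of all genes, and 31 were higher in DAC-treated cells, beside 63.1%. Of the 32 genes, 27 reached 100 UMIs in the DAC library only, 15 of them with 0 mock UMIs, so these counts are no support for a difference. The ratios between VCX-high cells and cells without VCX rest on the same 32 genes. Other genes higher in the DAC library were not compared separately, so the values do not set germline genes apart from those.

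**Figure D5:**
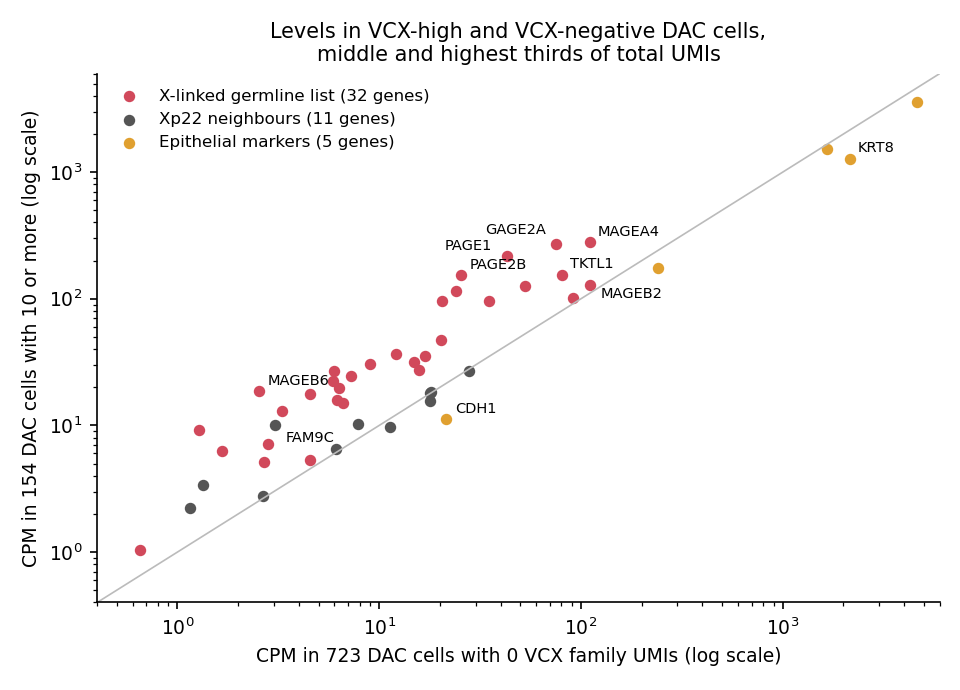
CPM in 154 DAC-treated cells with 10 or more VCX family UMIs (vertical axis) against CPM in 723 cells with 0 (horizontal axis), both log scales, for genes with at least 100 UMIs of 3 lists, in the middle and highest tertiles of total UMIs; the line marks equal levels. The 32 X-linked germline genes lie above the line and the 5 epithelial markers below it.

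Of the neighbors, FAM9C was 3.31-fold higher in the VCX-high cells (2.43–4.49), GPR143 2.56-fold (1.51–4.23), and CLCN4 1.93-fold (1.02–3.49). PUDP was at 0.86-fold and PNPLA4 at 1.01-fold. The median of the 11 neighbors was 1.03-fold, and 8 were higher. The counting interval lay above 1 for 3 of them and below 1 for 0. FAM9B, named after its values were seen, had 51 UMIs in the 154 high cells and 20 in the 723 cells without VCX, an 11.3-fold difference.

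Both libraries had the transcripts of a colon epithelial line, with at least 1152 UMIs of each of EPCAM, KRT8, KRT18, KRT19, and CDH1. Of 5 markers of blood, fibroblast, and endothelial cells, PTPRC, CD3E, COL3A1, and PECAM1 had 0 to 46 UMIs in a library, with PTPRC, CD3E, and PECAM1 at 0 in the mock library, and COL1A1 had 533 mock and 1112 DAC UMIs. All 5 epithelial genes were lower in the VCX-high cells, from 0.52-fold for CDH1, the adhesion gene E-cadherin, to 0.91-fold for KRT19, with 0.60-fold for KRT8, a keratin gene. COL1A1, a collagen gene, was 1.58-fold higher there. Mitochondrial genes took a median of 21.0% of UMIs in DAC-treated cells with 10 or more family UMIs and 18.5% in cells with none. The part of these differences in the VCX values was not tested.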

How the data were processed

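Single cells of HCT116 were captured with the Chromium Single Cell 3′ kit v3, with 1 library for mock treatment and 1 for DAC. The authors mapped reads to hg38 using Cell Ranger, per the labels, and deposited raw UMI counts for every gene in every cell. The annotation release is not given in the sources used here. The libraries contained 49911689 mock and 59046165 DAC UMIs, and all deposited cells were used without calling doublets.

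UMIs of the 4 genes were summed per library and per cell with pandas 2.3.3, numpy 2.4.6, and scipy 1.17.1 under Python 3.11.15, and matplotlib 3.10.9 drew the plots. UMI sums have exact Poisson intervals and shares exact Clopper-Pearson intervals at 95%, for counting error only. A count of 0 was entered as 3. No test was made, since each condition had 1 library and its cells are no replicates. Shares after drawing UMIs were computed from the hypergeometric distribution. Named genes were the members, the 10 genes most like them, Xp22 neighbors with 100 UMIs or more, the 8 X-linked germline genes with the most DAC UMIs, and the cell type markers. Other genes were named after their values were seen, as said beside them. The members and lists were chosen with earlier results of these data known. Alternatives were median-of-ratios scaling, the mean of per-cell CPM, cell filters by mitochondrial share, depth, or shared barcodes, drawing to fixed UMIs, and other thresholds. The computations were tested on simulated data.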

Additional observations from a re-analysis of the deposited data

How the results depend on the processing

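With 1 library per condition, no replicate could be left out, and no paired analysis was possible because each condition is a single library. The log2 CPM ratio of the family, 13.57, was 12.71 to 13.41 under scaling and cell filters that kept the mock UMI. It was a lower bound of 11.97 against 3 counts under those that removed it, and it was 8.14 as the mean of per-cell CPM, where the single mock UMI lies in a cell with 547 UMIs. No member turned direction, and none could, since each had 0 or 1 mock UMIs and was chosen for this difference. The lowest value over members and settings was a log2 ratio of 5.36, for VCX2. Without cells below 10000 UMIs or above 50% mitochondrial UMIs, the shares with 1 and 3 family UMIs were 37.9% and 15.7%, the mean per positive cell was 32.8 UMIs, and 61.5% of VCX3B cells had VCX3A. Without the 5% of cells with the most UMIs, the mean was 24.4 UMIs. Drawn to 1007 UMIs, the shares with 1 and 3 UMIs were 9.95% and 3.00%, and drawn to 10000, the share with 1 was 20.5%. A threshold of 3 UMIs raised co-detection to 97.2% for VCX3B in VCX3A cells, 87.7% in reverse, and 100% for VCX3B in VCX or VCX2 cells. With 10 UMIs or more in place of 100, 2577 genes, instead of 884, had a CPM ratio of 4. Of the 10 most like genes, 7 were shared with Spearman ranks and 9 with all cells. A single library per condition, shared reads among paralogs, and droplet RNA limit these values.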
